A study of Homo sapiens with 9 samples.

Results

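The platelet-activating factor (PAF) acetylhydrolase genes PAFAH1B1, PAFAH1B2, PAFAH1B3 and PAFAH2, together with NDEL1, a partner of the PAFAH1B1 product LIS1, were followed in glioma cells treated with a small interfering RNA (siRNA) that targets WT1. All probe sets with one of these 5 gene symbols as their only symbol in the probe annotation were taken, which gave 9 of the 22215 probe sets tested, for 5 of 11963 genes. The genes were chosen from earlier results of these arrays, in which a probe set of PAFAH1B1 and one of PAFAH2 were low with the WT1 siRNA against reagent alone. Values from that comparison are therefore given as a description, with no p-value for the members, and counts of members in it restate the choice. The other comparisons share arrays with it, so they are not independent of that choice.

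Transcript levels were measured on 9 Affymetrix arrays of U251 (U251MG), an established human glioma cell line grown in culture. The 3 groups had 3 cultures each. In the first, an siRNA directed at WT1, which encodes a zinc finger transcription factor, was given at 100 nM with the transfection reagent Oligofectamine. The second received a non-targeting (scrambled) siRNA at 100 nM with the same reagent, and the third received the reagent alone. Oligofectamine was thus common to all groups. The sources used here give catalogue numbers of the siRNAs and no sequence. The arrays carry replicate numbers 1 to 3 in each group. Every value below is a log2 level after RMA (robust multi-array average), so a difference of 1 is a doubling.

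PAF is a signalling ether phospholipid, and PAF acetylhydrolases end its action by removing the acetyl group. The type I enzyme in the cytosol is built from the catalytic subunits PAFAH1B2 and PAFAH1B3 on a dimer of the non-catalytic PAFAH1B1. PAFAH2 is a separate, type II enzyme inside the cell that also cleaves oxidised phospholipids. PAFAH1B1 has a second role as LIS1, the lissencephaly protein, which binds the microtubule motor dynein and works with NDEL1 and its relative NDE1 in nuclear movement, cell migration and mitosis.

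The 250 bases before the RefSeq start site are shown for the genes that were lower with the WT1 siRNA, PAFAH1B1 and PAFAH2, because they share that direction and differ in composition. Both are from GRCh38.p14, written 5′ to 3′ along the gene, and capitals mark each CG pair. The PAFAH1B1 window is chr17:2593404-2593653 on the plus strand and the PAFAH2 window is chr1:25998064-25998313 on the minus strand.
PAFAH1B1: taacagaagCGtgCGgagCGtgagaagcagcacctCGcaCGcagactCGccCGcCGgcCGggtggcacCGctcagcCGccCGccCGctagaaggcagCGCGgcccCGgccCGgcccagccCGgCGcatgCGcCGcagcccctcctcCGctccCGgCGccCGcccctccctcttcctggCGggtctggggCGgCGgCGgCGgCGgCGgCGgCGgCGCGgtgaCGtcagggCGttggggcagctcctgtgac
PAFAH2: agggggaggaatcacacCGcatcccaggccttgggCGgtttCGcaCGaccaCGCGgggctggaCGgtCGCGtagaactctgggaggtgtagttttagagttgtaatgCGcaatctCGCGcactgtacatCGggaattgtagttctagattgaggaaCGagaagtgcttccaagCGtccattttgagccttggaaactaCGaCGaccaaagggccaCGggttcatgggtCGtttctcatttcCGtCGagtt

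The PAFAH1B1 window held 38 CG pairs at 78.8% G and C, more pairs than 96.7% of the 35116 RefSeq windows of that length. The PAFAH2 window held 21 pairs at 54.4%, against a median over all windows of 11 pairs and 58.0%. Neither the letters GCGNGGGCG, the motif bound by WT1 and by EGR factors, nor TCCTCCTCC, a repeat reported for WT1, was found on either strand of the windows of the 5 genes. Over all windows, 8.41% held the first and 3.18% the second. The absence says only that these letters were not in these windows.

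WT1 itself was read first as a check of the siRNA. At its brighter probe set the levels with the WT1 siRNA were 4.76, 5.09 and 4.82 for numbers 1, 2 and 3. They were 5.59, 5.89 and 5.41 with the scrambled siRNA and 6.05, 6.58 and 5.89 with reagent. At this probe set WT1 was lowest with its siRNA in all 3 numbers. It was at 60% of the scrambled level (−0.74, limma adjusted p = 0.00336 with the replicate block). That fall passed in 17 of 19 alternatives and was lost without the block (adjusted p = 0.672) and without number 2 (0.0795). The scrambled siRNA level was in turn below that of reagent (−0.55, limma adjusted p = 0.0164 with the replicate block). That call between the controls passed in 10 of 19 alternatives and was lost without the block (adjusted p = 1), with a random block (0.054), without number 1 (0.0743) or 2 (0.305), and without replicate 1 or 2 of either control (0.0607 to 0.13) or scrambled replicate 3 (0.0735). The dimmer WT1 probe set stood at 4.92, 4.83 and 5.06 with the WT1 siRNA, at 5.40, 4.94 and 5.00 with the scrambled siRNA and at 5.21, 5.05 and 5.00 with reagent. There the WT1 siRNA array was lowest in numbers 1 and 2 and highest in number 3. The difference from scrambled siRNA was −0.18 (adjusted p = 0.42) and that between the controls was 0.03 (0.959), so the second probe set did not pass. Array medians lay between 6.45 and 6.53, above the WT1 levels with either siRNA at both probe sets, and a low signal can hide part of a fall. Of 10 astroglial and glioma markers 6 were above the array median on all arrays, among them VIM, CD44 and SOX9. AQP4, S100B and ALDH1L1 were below it on all arrays, and GFAP ranged from brighter than 31.9% of probe sets on one array to 85.3% on another. Markers of oligodendrocytes (3 of 3 measured), of microglia (3 of 4) and of endothelium (3 of 4) were below the median on all arrays. The remaining microglial marker, AIF1, was above the median on all arrays, brighter than 52.7% to 57.1% of probe sets. Of 4 platelet markers 2 were below it on all arrays and none above. Of 5 neuronal markers 3 were above it on all arrays, led by NEFL. No array lacked the glioma markers VIM and CD44, and the part of other cell types in the results was not tested.

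PAFAH1B1, the LIS1 subunit, was lower with the WT1 siRNA than with the scrambled siRNA at 3 of its 4 probe sets, to between 65.1% and 68.0% of the scrambled level. PAFAH2, the type II enzyme, was lower at 1 of its 2 probe sets, at 81.3%. The catalytic subunits PAFAH1B2 and PAFAH1B3 and the partner NDEL1 did not pass the test. In these bulk cultures fewer cells with a transcript and less of it per cell cannot be told apart. The 4 calls among 9 member probe sets were all falls, where falls made up 1.94% of all probe sets in this comparison. Without the replicate block 0 of the 9 were called, against 0.018% of all probe sets, and 4 of the 9 had an unadjusted p under 0.05, as did 3.71% of all probe sets. The same 4 probe sets lay below every scrambled siRNA array, as did 3.36% of all probe sets, and below every array of both control groups, as did 1.22%. Since PAFAH1B1 and PAFAH2 were chosen for low values with the WT1 siRNA, these counts describe the members and do not stand as support.

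**Figure D1:**
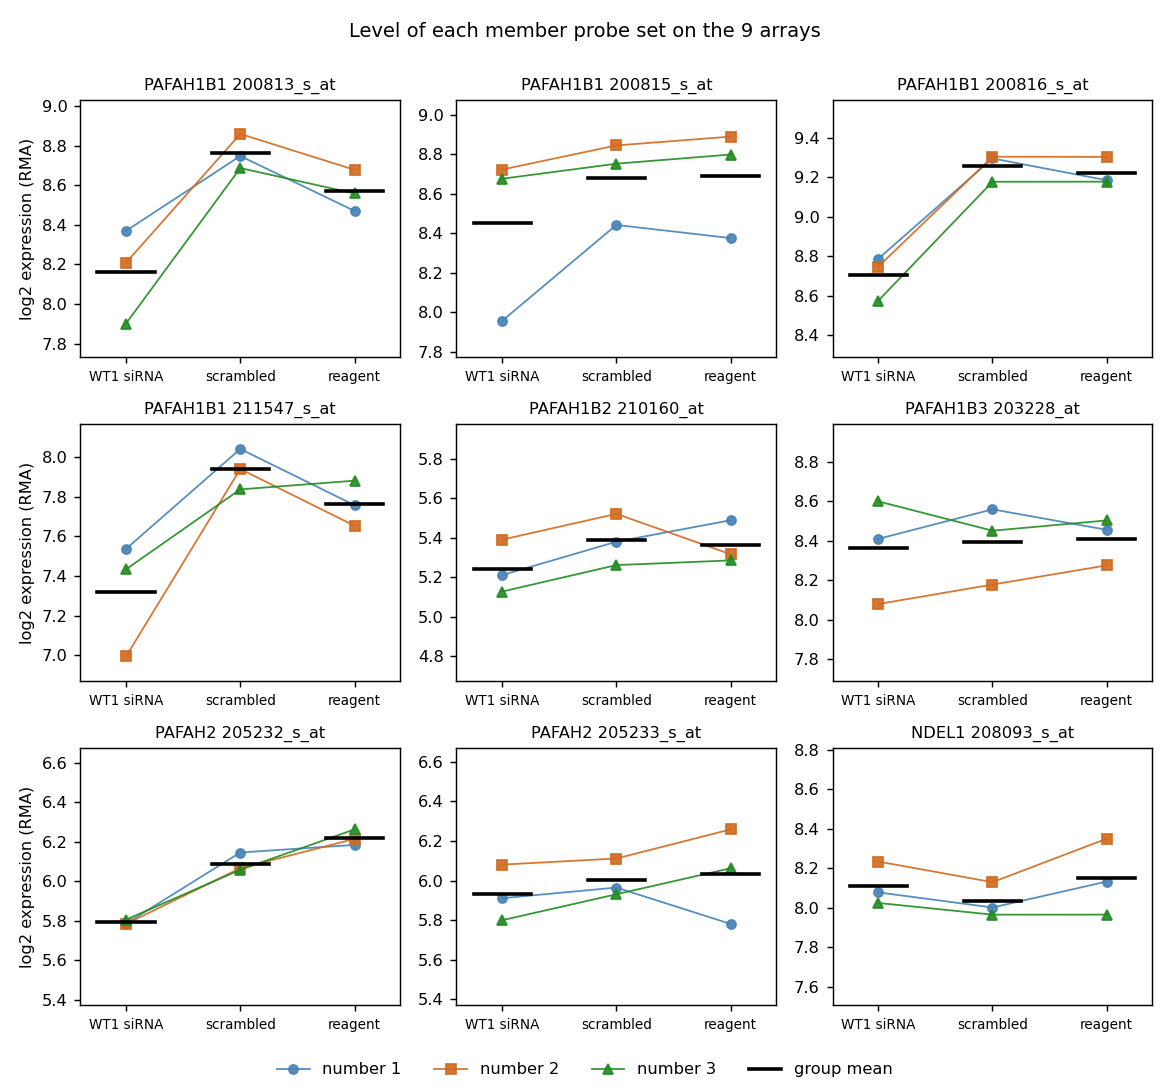
Log2 level (RMA, vertical axis, 1.3 units in every panel) of the 9 member probe sets in the 3 treatment groups. Points joined by a line share a replicate number and black bars are group means of 3 arrays. At PAFAH1B1 200813_s_at, 200816_s_at and 211547_s_at and at PAFAH2 205232_s_at all 3 arrays with the WT1 siRNA lie below all 6 control arrays, while the other panels overlap.

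The brightest PAFAH1B1 probe set, 200816_s_at, stood at 8.79, 8.75 and 8.58 with the WT1 siRNA for numbers 1, 2 and 3. It stood at 9.30, 9.30 and 9.18 with the scrambled siRNA, and at 9.19, 9.30 and 9.18 with reagent. All arrays with the WT1 siRNA lay below all others by at least 0.39, and the control groups overlapped each other. The means were 8.70 (SD 0.113, n = 3), 9.26 (SD 0.0707) and 9.22 (SD 0.0704). The fall against scrambled siRNA was −0.56 (SE 0.0611, limma adjusted p = 0.00336 with the replicate block), lower in 3 of 3 numbers by 0.51, 0.56 and 0.60. It did not pass without the block (adjusted p = 0.188) or without the arrays of number 2 (−0.56, 0.113). Without number 2, only 2 probe sets of the whole chip were called in this comparison.

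At 200813_s_at PAFAH1B1 stood at 8.37, 8.21 and 7.90 with the WT1 siRNA, at 8.75, 8.86 and 8.69 with the scrambled siRNA and at 8.47, 8.68 and 8.56 with reagent. All arrays with the WT1 siRNA were lowest, and the difference from either control was smallest in number 1 and greatest in number 3. The fall against scrambled siRNA was −0.61 (SE 0.0947, adjusted p = 0.0117), with −0.38, −0.65 and −0.79 within the numbers. The call was lost without the block (adjusted p = 0.391) and when WT1 siRNA replicate 2 (0.0676), scrambled replicate 2 (0.0894), scrambled replicate 3 (0.0623) or number 2 (0.207) was left out. Here the scrambled level was also above the reagent level in 3 of 3 numbers (0.28, 0.18 and 0.13), a difference of 0.20 that did not pass (adjusted p = 0.463).

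The dimmest PAFAH1B1 probe set, 211547_s_at, stood at 7.54, 6.99 and 7.43 with the WT1 siRNA, at 8.04, 7.94 and 7.84 with the scrambled siRNA and at 7.76, 7.65 and 7.88 with reagent. Number 2 with the WT1 siRNA was the lowest array. The fall against scrambled siRNA was −0.62 (SE 0.104, adjusted p = 0.016), with −0.51, −0.95 and −0.40 within the numbers. It did not pass without the block (0.509) or without scrambled replicate 1 (0.074), WT1 siRNA replicate 2 (−0.48, 0.0589), scrambled replicate 2 (0.107) or number 2 (−0.46, 0.205).

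The remaining PAFAH1B1 probe set, 200815_s_at, followed another pattern. Its levels were 7.96, 8.72 and 8.68 with the WT1 siRNA, 8.44, 8.84 and 8.75 with the scrambled siRNA and 8.38, 8.89 and 8.80 with reagent. Number 1 was the lowest of every group, and the groups overlapped. The difference against scrambled siRNA was −0.23 (SE 0.0816, adjusted p = 0.193), lower in 3 of 3 numbers (−0.49, −0.12 and −0.08). Its interval of −0.41 to −0.04 (95%, limma with the block) lay just above that of 200816_s_at, −0.69 to −0.42. The same interval overlapped those of 200813_s_at (−0.82 to −0.39) and 211547_s_at (−0.85 to −0.39). The difference between the probe sets was not tested. The probe annotation ties the 4 probe sets to different source records of PAFAH1B1, and where their probes lie in the transcript was not given in the sources used here.

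Replicate number accounted for 77.5% of the sum of squares of 200815_s_at over the 9 arrays and group for 15.1%. At 200816_s_at the shares were 5.4% and 92.7%. A measure of RNA quality also moved with the number. The difference between the 3′ and 5′ control probe sets of ACTB was 0.051 to 0.089 in number 1, 0.554 to 0.677 in number 2 and 0.26 to 0.505 in number 3. The lowest value of number 3 was that of the WT1 siRNA array, and number 2 also had its lowest value there. In number 1 the scrambled siRNA array was lowest (0.051). The same difference for GAPDH followed the numbers in the same order, at −0.025 to −0.006, 0.157 to 0.184 and 0.095 to 0.106. Within each number the GAPDH difference was highest on the WT1 siRNA array (−0.006, 0.184 and 0.106). Correlations are given for ACTB only. The correlation of the ACTB difference with 200815_s_at was 0.847 over 9 arrays, which share 3 replicate numbers. After the mean of each number was removed, the correlation was 0.242 for 200815_s_at and 0.826, 0.757 and 0.661 for 200813_s_at, 200816_s_at and 211547_s_at. It was 0.658 for PAFAH2 205232_s_at, and between −0.322 and 0.566 for the remaining members. These correlations share the treatment groups and describe these arrays only. In number 3 the ACTB difference was 0.26 with the WT1 siRNA, 0.46 with the scrambled siRNA and 0.505 with reagent. The part of RNA quality in the PAFAH1B1 and PAFAH2 results was not tested.

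**Figure D2:**
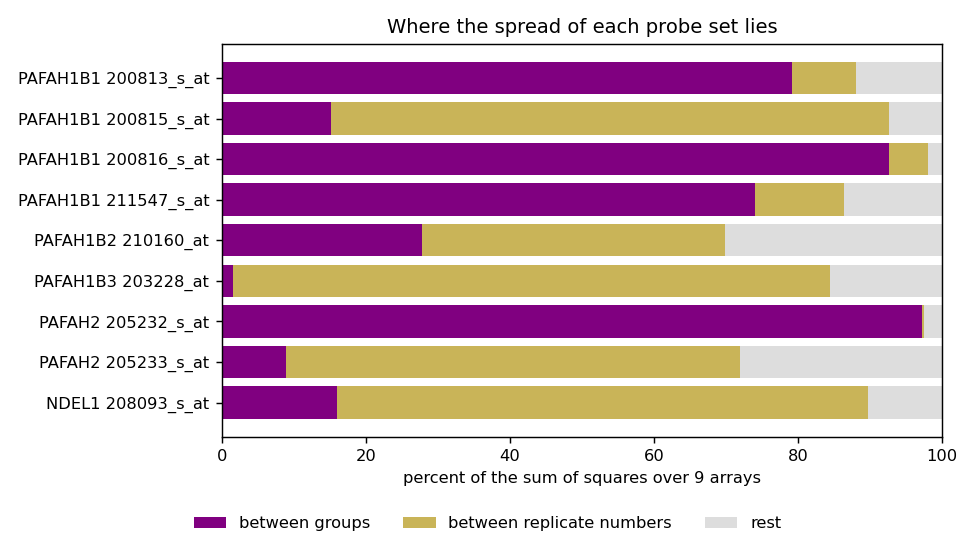
Share of the sum of squares over 9 arrays (horizontal axis, percent) that lies between the treatment groups, between the replicate numbers and in the rest, for each member probe set. PAFAH2 205232_s_at (97.3%) and PAFAH1B1 200816_s_at (92.7%) have most of their spread between groups, and PAFAH1B3 (82.9%) and PAFAH1B1 200815_s_at (77.5%) between numbers.

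Neither catalytic subunit of the type I enzyme passed the test. PAFAH1B2 (210160_at) was dim, with 26.7% to 34.7% of all probe sets below it. Its levels were 5.21, 5.39 and 5.13 with the WT1 siRNA, 5.38, 5.52 and 5.26 with the scrambled siRNA and 5.49, 5.32 and 5.28 with reagent. The WT1 siRNA array was lower than its scrambled partner in 3 of 3 numbers by a like amount (−0.17, −0.13 and −0.13), and the groups overlapped. Replicate number accounted for 42.1% of the sum of squares and group for 27.8%. In number 2 the WT1 siRNA array was above the reagent array by 0.07. The difference of −0.14 did not pass (SE 0.0752, adjusted p = 0.392, 95% interval −0.31 to 0.02).

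PAFAH1B3 (203228_at) stood at 8.41, 8.08 and 8.60 with the WT1 siRNA, at 8.56, 8.18 and 8.45 with the scrambled siRNA and at 8.46, 8.28 and 8.50 with reagent. Number 2 was lowest in every group, and 82.9% of the sum of squares lay between numbers against 1.5% between groups. Against scrambled siRNA the difference was −0.03 (SE 0.075, adjusted p = 0.894), with an interval of −0.20 to 0.14. A fall of the size seen at the called PAFAH1B1 probe sets, 0.56 or more, lies outside that interval. It also lies outside the interval of PAFAH1B2, but the signal there was dim, which can hide part of a fall.

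PAFAH2 had the tightest groups among the members at 205232_s_at. Its levels were 5.79, 5.78 and 5.81 with the WT1 siRNA, 6.15, 6.07 and 6.06 with the scrambled siRNA and 6.18, 6.22 and 6.26 with reagent. The 3 groups did not overlap, in the order WT1 siRNA, scrambled siRNA and reagent, and this order held in 3 of 3 numbers. The means were 5.79 (SD 0.012, n = 3), 6.09 (SD 0.0483) and 6.22 (SD 0.0395), and number accounted for 0.2% of the sum of squares. The probe set was below the array median throughout, brighter than 38.2% to 47.2% of probe sets, and a low signal can hide part of a fall.

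The PAFAH2 fall against scrambled siRNA at 205232_s_at was −0.30 (SE 0.0585, limma adjusted p = 0.0288), with −0.36, −0.28 and −0.25 within the numbers. The call was lost without the block (adjusted p = 0.463), with the 6 arrays of the groups compared fitted alone (0.0753) and without any of numbers 1, 2 and 3 (0.126, 0.313 and 0.0854). It was also lost without WT1 siRNA replicate 1, 2 or 3 (0.067, 0.115 and 0.0582), scrambled replicate 1, 2 or 3 (0.133, 0.151 and 0.079) or reagent replicate 2 (0.0633). It held without reagent replicate 1 (0.038) or 3 (0.0372). In the fits that lost it the difference itself stayed between −0.33 and −0.26.

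The second PAFAH2 probe set, 205233_s_at, did not show the same order. It stood at 5.91, 6.08 and 5.80 with the WT1 siRNA, at 5.96, 6.11 and 5.93 with the scrambled siRNA and at 5.78, 6.26 and 6.06 with reagent. The groups overlapped, and number 2 was highest in each. The difference against scrambled siRNA was −0.07 (SE 0.0818, adjusted p = 0.75, 95% interval −0.26 to 0.11), lower in 3 of 3 numbers. The probe sets of PAFAH2 thus give different sizes, with intervals that overlap (−0.43 to −0.17 at 205232_s_at).

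NDEL1 (208093_s_at), which links LIS1 to dynein, stood at 8.08, 8.23 and 8.02 with the WT1 siRNA, at 8.00, 8.13 and 7.97 with the scrambled siRNA and at 8.13, 8.35 and 7.97 with reagent. The groups overlapped, and number 2 was highest in each group. NDEL1 was the only member above its scrambled level in 3 of 3 numbers, by 0.08, 0.10 and 0.06. The difference of 0.08 did not pass (SE 0.0622, adjusted p = 0.607, 95% interval −0.06 to 0.22).

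Against reagent alone, the comparison used in choosing the genes, all 9 member probe sets had a mean below 0. PAFAH1B1 200816_s_at was at 69.8% of the reagent level (−0.52; −0.40, −0.56 and −0.60 within the numbers). PAFAH2 205232_s_at was at 74.3% (−0.43; −0.40, −0.43 and −0.46). Both were past the adjusted threshold, where falls made up 0.837% of all probe sets, and since this comparison chose the genes nothing is read from that count. PAFAH1B1 200813_s_at (−0.41) and 211547_s_at (−0.44) were lower in 3 of 3 numbers and below all reagent arrays, and 200815_s_at was at −0.24. PAFAH1B2 (−0.12), PAFAH1B3 (−0.05), PAFAH2 205233_s_at (−0.10) and NDEL1 (−0.04) were each lower in 2 of 3 numbers.

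The comparison of the scrambled siRNA with reagent asked how the members differed when an siRNA not aimed at WT1 was added. Limma called 0 of the 9 member probe sets at the adjusted threshold and 0 at an unadjusted p under 0.05, with the block or without it. Over all probe sets 1.09% were called with the block and 0.0045% without it. An unadjusted p under 0.05 was reached by 11.9% of all probe sets with the block and by 2.17% without it. PAFAH2 205232_s_at came nearest, at −0.13 (SE 0.0585, adjusted p = 0.423, 95% interval −0.26 to 0.00), with groups that did not overlap. The groups also did not overlap at PAFAH1B1 200813_s_at, where the scrambled siRNA was the higher, by a gap of 0.0088. The share of all probe sets without overlap between the controls was not taken. PAFAH1B1 lay at 0.20 and 0.18 at 200813_s_at and 211547_s_at, at 0.04 at 200816_s_at and at −0.01 at 200815_s_at. NDEL1 lay at −0.12 (adjusted p = 0.518), PAFAH1B2 at 0.02, PAFAH1B3 at −0.02 and PAFAH2 205233_s_at at −0.03.

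**Figure D3:**
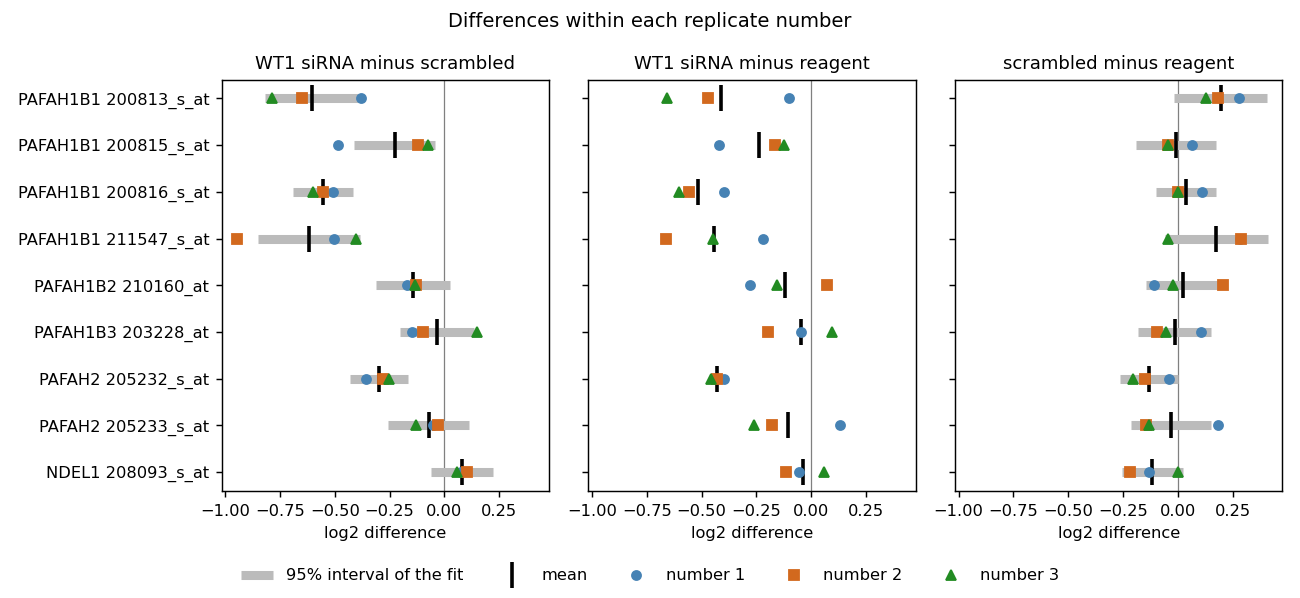
Log2 difference (horizontal axis) of each member probe set in the 3 comparisons, with points for the difference within each replicate number and a black tick for their mean. Grey bars are 95% intervals of the fit with the replicate block, left out where the comparison was used in choosing the genes. PAFAH1B1 200816_s_at shows −0.51, −0.56 and −0.60 against scrambled siRNA, while against reagent the scrambled siRNA points lie around 0.

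The orders of the group levels differed between probe sets. PAFAH1B1 had its highest mean with the scrambled siRNA at 200813_s_at, 200816_s_at and 211547_s_at, and with reagent at 200815_s_at. PAFAH2, PAFAH1B3 and NDEL1 had theirs with reagent, and PAFAH1B2 with the scrambled siRNA. The lowest mean was with the WT1 siRNA at 8 of the 9, the exception being NDEL1, which was lowest with the scrambled siRNA. The scrambled and reagent levels did not differ beyond the test at any member probe set.

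Correlations among the members were taken over 9 arrays after the mean of each number was subtracted, so they share the treatment groups and describe these arrays only. The called PAFAH1B1 probe sets went together at 0.908 to 0.939. PAFAH2 205232_s_at had 0.923 with PAFAH1B1 200816_s_at and 0.571 with the other PAFAH2 probe set. NDEL1 had −0.223 with 200816_s_at and 0.034 with PAFAH2 205232_s_at. PAFAH1B3 had 0.257 with 200816_s_at and −0.169 with PAFAH1B2.

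The genes most like each member probe set were taken from 19055 other probe sets by the same measure, so high values are the extremes of many. PAFAH1B1 200816_s_at was nearest to DBT (0.994), MFN1 (0.992) and PDHA1 (0.991), and 200813_s_at to RBMS1 (0.998), PPA2 (0.996) and ATP5PO (0.991). PAFAH1B1 211547_s_at was nearest to OXCT1 (0.991), BDH2 (0.985) and ATP2C1 (0.984), and 200815_s_at to WWC1 (0.99), GOLGA1 (0.985) and CSNK2A2 (0.982). No gene was shared among the 3 nearest of each PAFAH1B1 probe set. With 3 names kept from 19055, this does not say whether the probe sets differ. PAFAH2 205232_s_at was nearest to PRP4K (0.995), PPCS (0.991) and ISCA1 (0.989), and 205233_s_at to KIF15 (0.989), SYCP1 (0.978) and TMEM223 (0.972). PAFAH1B2 was nearest to PTGES (0.98), PUM2 (0.968) and ALDH9A1 (0.964). PAFAH1B3 was nearest to GAMT (0.976), CTTN (0.968) and SIGLEC1 (0.962), and NDEL1 to HLX (0.964), XPO1 (0.954) and INVS (0.953). Of these DBT lay at −0.78 against scrambled siRNA and at −0.69 against reagent, lower than PAFAH1B1 at any of its probe sets. Before the number means were subtracted, the correlations of the genes named here ranged from −0.65 (CTTN with PAFAH1B3) to 0.978 (PPA2 with PAFAH1B1 200813_s_at).

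None of the other genes measured in the dynein and LIS1 pathway passed beside PAFAH1B1 against scrambled siRNA. Of 34 measured, each by its brightest probe set, limma called 0 against scrambled siRNA with the block and 0 without it, where 3.7% of all genes were called with the block. At an unadjusted p under 0.05 with the block there were 4 of the 34, against 17.7% of all genes. Their median difference was −0.04, with 26 of 34 below 0 and a range of −0.25 to 0.14, against a median of 0.00 over all genes. NDE1, the close relative of NDEL1, lay at −0.01 (adjusted p = 0.964), NUDC, a dynein cofactor that binds LIS1, at −0.08 (0.548), and DYNC1H1, the dynein heavy chain, at −0.04 (0.853).

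Against reagent 1 of the 34 was called, where 1.4% of all genes were. KATNA1, the subunit of katanin that severs microtubules, fell by 0.34 (SE 0.0614, adjusted p = 0.0344). It was not called without the block (adjusted p = 1), with a random block (0.0566), with the 6 arrays compared fitted alone (0.144) or when any single array (0.0506 to 0.21) or number (0.0709 to 0.41) was left out. Its other values were −0.25 against scrambled siRNA (adjusted p = 0.0599, and 0.0461 after each array was centred on its median) and −0.09 between scrambled siRNA and reagent. The median of the list was 0.00 against reagent and 0.05 between scrambled siRNA and reagent, where 0 were called with or without the block and 1.21% of all genes were called with it. Between the controls 2 of the 34 had an unadjusted p under 0.05, against 13.1% of all genes.

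Of 25 measured genes of PAF and ether lipid metabolism, limma called 0 in each of the 3 comparisons, with or without the block, where 3.7%, 1.4% and 1.21% of all genes were called with it. At an unadjusted p under 0.05 with the block there were 3 against scrambled siRNA, 6 against reagent and 3 between the controls, where all genes gave 17.7%, 15.9% and 13.1%. The medians were 0.00, 0.01 and 0.01. PLA2G7, the PAF acetylhydrolase of plasma, had one of the dimmest signals, brighter than 2.1% to 4.4% of probe sets, at 3.90 with the WT1 siRNA, 3.90 with the scrambled siRNA and 3.89 with reagent. PTAFR, the PAF receptor, stood at 6.91, 6.85 and 6.85, and its difference of 0.06 against scrambled siRNA did not pass (adjusted p = 0.838).

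Of 21 measured genes of lissencephaly and the reelin pathway, which guide migrating neurons, limma called 0 in each comparison, with or without the block, beside the same shares of all genes. With the block 3, 7 and 1 had an unadjusted p under 0.05 against scrambled siRNA, against reagent and between the controls, beside 17.7%, 15.9% and 13.1% of all genes. The medians were −0.01, 0.04 and 0.05.

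**Figure D4:**
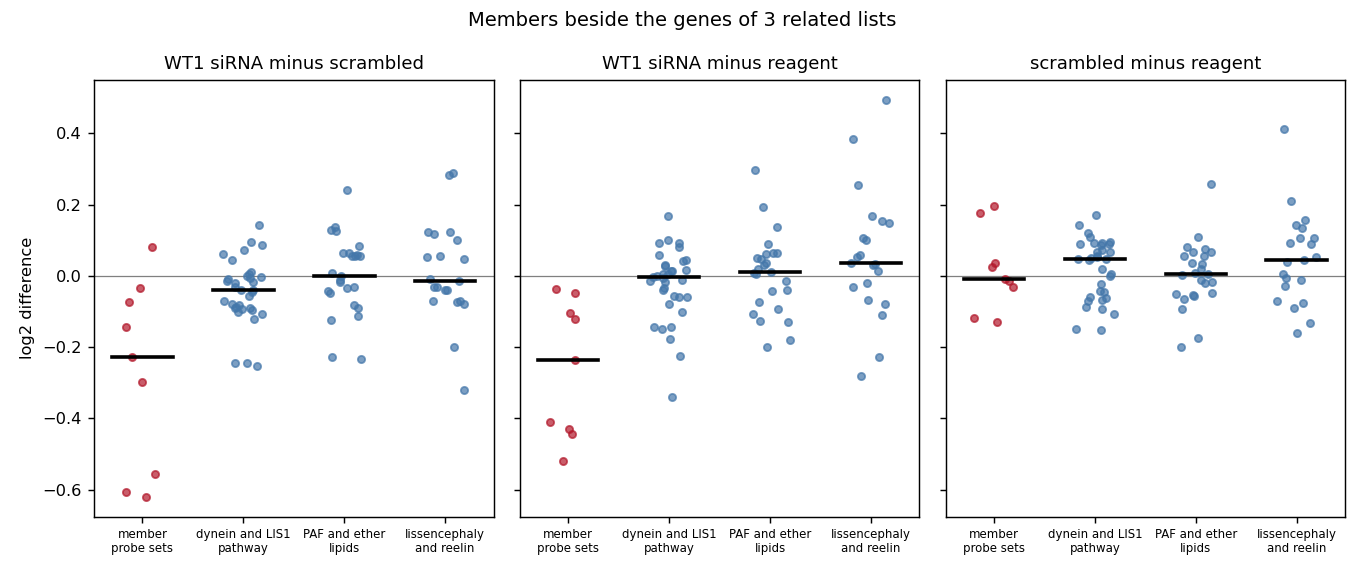
Log2 difference (vertical axis) in the 3 comparisons for the 9 member probe sets (red) and for the genes of 3 lists (blue, each gene by its brightest probe set, 34, 25 and 21 genes), with medians as black bars. Against scrambled siRNA the median is −0.23 for the member probe sets, which were chosen for low values, and −0.04, 0.00 and −0.01 for the lists. The units differ, since 4 of the 9 member probe sets belong to PAFAH1B1 and the lists hold each gene once.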

How the data were processed

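Per the labels, the authors processed 9 arrays with RMA, and the values they deposited are log2 levels, 1 for each probe set. The sources used here name no software. The table had 22277 probe sets, 62 of them controls, which were left out, and 0 missing values. Symbols came from the platform annotation, and a second look-up of 19052 through their gene IDs altered 0.

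Limma 3.58.1 in R 4.3.3 was fitted to all probe sets and all 9 arrays with 1 mean per group and the replicate number as a block. Tests were two-sided, adjusted after Benjamini and Hochberg over 22215 probe sets, and called under 0.05. The numbers pair the arrays: deviations from group means correlated at 0.647 to 0.849 in the 9 pairs of like number and at −0.611 to −0.031 in the others. Nothing given here says what a number stands for, so p-values may cover spread between wells of one experiment. The number of arrays limits the precision. The procedure was tested on simulated data.

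The members, lists and markers were chosen with earlier results of these data known. Named were all member probe sets, WT1, up to 4 called genes per list and comparison, 5 partner genes, and the 3 genes most like each member probe set. Figures were drawn with matplotlib 3.10.9.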

Additional observations from a re-analysis of the deposited data

How the results depend on the processing

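With the replicate block removed, 0 member probe sets were called against scrambled siRNA (4 with it), and the chip-wide counts went from 726 to 4, from 277 to 0 and, between the controls, from 242 to 1. Against scrambled siRNA with 1 probe set per gene, 2 of the 5 member probe sets then held were called. They were PAFAH1B1 200816_s_at (limma adjusted p = 0.00251) and PAFAH2 205232_s_at (0.0247), so both genes stayed called. With all member probe sets the count in this comparison was 1 to 4 when an array was left out. It was 0 to 3 when a number was left out, 0 being without number 2. Chip-wide counts there were 88 to 706 without an array and 2 to 383 without a number, 2 being without number 2. Against reagent, the comparison that chose the genes, the member count is a description that says nothing of stability: it was 2 with the replicate block, 0 without it, 0 with only the 6 arrays compared, 1 with only probe sets above the median level (6 of the members), 4 with trend and robust estimation, 0 to 3 without an array and 0 to 3 without a number. Between the controls it was 0 in all 20 alternatives. A random block gave chip-wide counts of 356, 118 and 88, the 6 arrays alone 390, 3 and 535, and trend with robust estimation 1091, 595 and 485. The 4 called falls against scrambled siRNA kept their sign in every alternative that held the probe set, and PAFAH1B1 200816_s_at passed in 18 of 20 alternatives and PAFAH2 205232_s_at in 7 of 19. The causes were not tested. The PAFAH2 and PAFAH1B2 probe sets lay below the array median, where background may limit what can be seen.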
